A study of Mus musculus with 6 samples.

Results

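The 35 genes described here encode proteins of homologous recombination, the Fanconi anaemia pathway, mismatch recognition and the ATM and ATR checkpoints. They were listed by name, and all 35 were found among the 24043 gene rows of the deposited table. All 35 reached a 6-library mean of 1 FPKM or more and so were among the 11573 genes tested. FPKM is a fragment count scaled to the length of the gene and the depth of the library, a level per length that can be set side by side between genes.

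Transcript levels were measured by RNA-seq of total RNA from mouse embryonic stem (ES) cells. There were 3 libraries of cells labelled Q-KO, which by their genotype label lack every G1 cyclin, and 3 libraries of wild-type cells. Both groups were grown with the MEK inhibitor PD184352, the GSK3 inhibitor CHIR99021 and leukaemia inhibitory factor (LIF). The labels do not give the alleles, how they were deleted, or whether the libraries of a group came from separate clones or cultures, so a p-value here reflects no more than the spread among these samples, which may be technical.

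Homologous recombination repairs broken DNA by copying the sister chromatid. The MRE11 complex and its partners resect the ends, the BRCA proteins prepare the single strand for strand invasion, and helicases resolve the joined molecules. The Fanconi proteins detect crosslinks between the strands, and a core complex marks FANCD2 and FANCI with ubiquitin, after which incision and recombination follow. ATR with CHK1 responds to stalled replication forks, and ATM with CHK2 responds to breaks. ES cells have a short G1 phase and spend much of their cycle replicating DNA, and many of these genes are known to be transcribed in S phase under the E2F factors, which lie downstream of the G1 cyclins.

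None of the 35 genes passed limma's test after Benjamini-Hochberg adjustment over all genes tested, where 4.06% of genes passed at an adjusted p under 0.05 (1.02% lower and 3.04% higher in the libraries labelled Q-KO). The unadjusted p was under 0.05 for 10 of the 35, of which 9 were lower in the libraries labelled Q-KO and 1 was higher. Over all genes tested 21.5% had such a p, with 6.7% lower and 14.8% higher. Every library labelled Q-KO lay below every wild-type library for 10 of the 35, against 9.44% of all genes, and above every wild-type library for 2 of the 35, against 18.2% of all genes. In either direction the groups did not overlap for 12 of the 35 and for 27.7% of all genes. The 10 lower ones were Atr, Fancd2, Brca1, Chek1, Palb2, Blm, Nbn, Topbp1, Rad54b and Atrip, and the 2 higher ones were Fancc and Fancg. The log2 change, which is Q-KO minus wild-type on the scale log2(FPKM + 1) throughout, was below 0 for 24 of the 35 genes and for 40.7% of all genes. Its median was -0.14 over the 35 genes and 0.07 over all genes tested. In bulk samples, fewer cells of a type and less RNA per cell cannot be told apart.

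**Figure D1:**
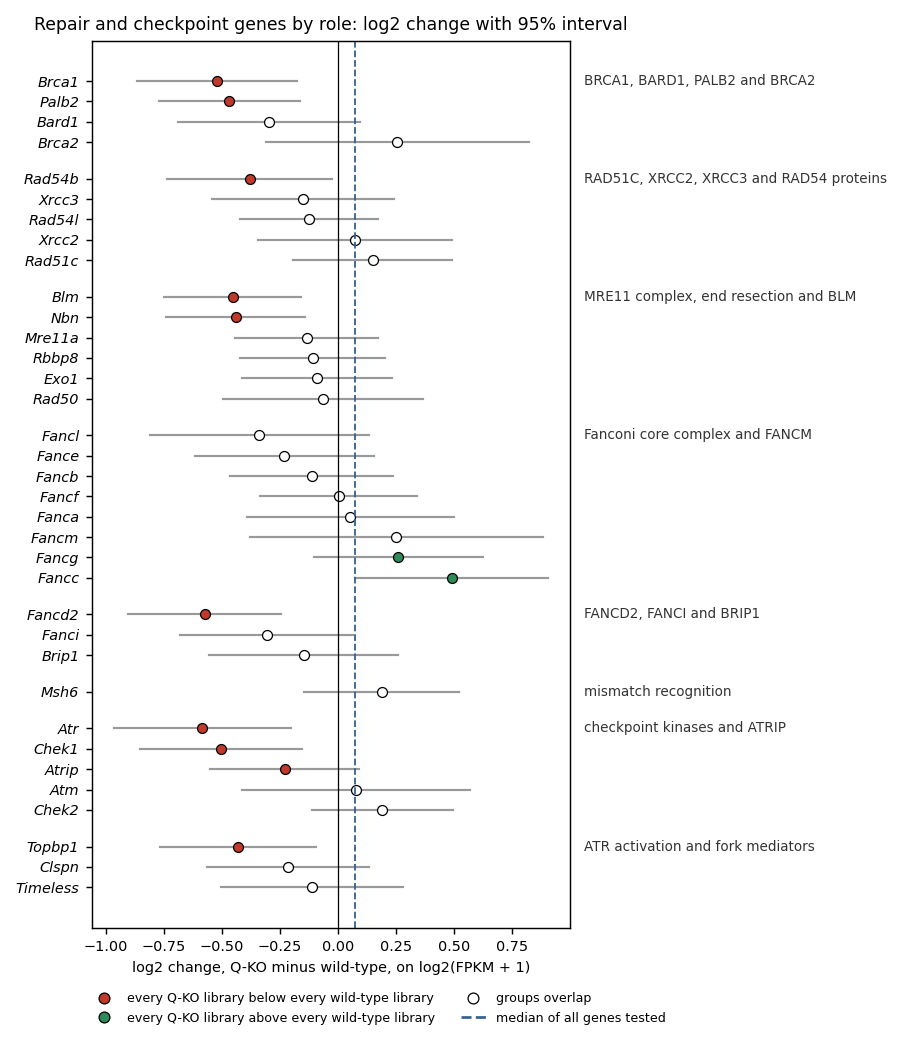
Log2 change (x axis, Q-KO minus wild-type on log2(FPKM + 1)) with its 95% interval from limma for the 35 genes, grouped by role, with the dashed line at the median of all genes tested (0.07). The lowest values are those of Atr (-0.58), Fancd2 (-0.57) and Brca1 (-0.52), and the highest is that of Fancc (0.49).

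Some facts of the libraries bear on these values. Transcripts of Ccnd3, Ccnd1 and Ccne2, which encode G1 cyclins, fell with the Q-KO label, whereas Ccne1 was at 65.3, 73.5 and 87.3 FPKM there, against 55.9, 53.9 and 37.5 FPKM in the wild-type libraries. Ccnd2 was low in both groups, at 0.398 ± 0.133 FPKM in the libraries labelled Q-KO and 0.179 ± 0.124 FPKM in wild-type libraries (SD, n = 3 each), with overlapping groups and no test. Ccne1 did not fall with the label, and its level cannot show whether the gene was deleted. Each direction given here therefore belongs to the libraries that bear the Q-KO label, whatever their genotype. A gene-level FPKM also counts exons outside a deleted part. The libraries of the wild-type group were unlike one another. Replicate 3 of that group carried Y-linked transcripts, as did all 3 libraries labelled Q-KO, while wild-type replicates 1 and 2 were at 0 for the 5 Y-linked genes examined. Its genes on chromosomes 8 and 11 were higher than the mean of wild-type replicates 1 and 2, by medians of 0.25 and 0.25 on the log2 scale, where the medians of the other chromosomes ran from -0.12 to 0.02. Brca1, Rad51c, Rad50, Fancl and Brip1 lie on chromosome 11 and Fanca lies on chromosome 8. Without wild-type replicate 3, 0 of the 35 genes passed limma's test (lowest adjusted p = 0.0596), 9 had an unadjusted p under 0.05, and the median of the 35 was -0.15. In that fit 20.6% of all genes tested had such an unadjusted p. Markers of ES cells were present in every library, as 8 of 8 were tested, and 0 passed limma's test. Their summed level was 5700 to 10331 FPKM in the libraries labelled Q-KO and 5845 to 7249 FPKM in wild-type libraries. Dppa5a made up most of that sum, at 3676 to 7781 FPKM and 3738 to 5022 FPKM. Zfp42, on chromosome 8, was at 363 FPKM in wild-type replicate 3, against 76.6 and 78.9 FPKM in wild-type replicates 1 and 2. It was at 177, 75.4 and 74.7 FPKM in the libraries labelled Q-KO. Of 10 fibroblast markers only Thy1 was tested, and their sum was 1.09 to 7.10 FPKM in the libraries labelled Q-KO and 1.72 to 3.08 FPKM in wild-type libraries. The highest sum was that of Q-KO replicate 1. Col1a1, Col1a2 and Col3a1 were at 1.86, 1.16 and 1.35 FPKM in Q-KO replicate 1 and at most 0.168 FPKM in every other library. Dcn was at 0.272, 0 and 0.00717 FPKM in the libraries labelled Q-KO and at 0 in all 3 wild-type libraries. None of 6 endoderm markers was tested, and 2 of 6 mesoderm and neural markers were, Nes and Tubb3. Some markers moved with the groups at low levels. Every library labelled Q-KO lay below every wild-type library for Nes (3.21 ± 0.478 FPKM in the libraries labelled Q-KO and 6.24 ± 2.06 FPKM in wild-type libraries, SD, n = 3 each, limma adjusted p = 0.105) and for Thy1 (0.819 to 1.36 FPKM in the libraries labelled Q-KO and 1.42 to 2.75 FPKM in wild-type libraries, limma adjusted p = 0.196). Mixl1, Pax6, Col6a1 and Afp, all under 1 FPKM and untested, were higher in every library labelled Q-KO, and Afp was at 0 in all wild-type libraries. The part of these markers in the results was not tested.

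The 35 genes were expressed at unequal levels. Their means over the 6 libraries had a median of 12.3 FPKM. Msh6 stood above the rest at 184 FPKM, higher than 96.4% of the genes tested, and Topbp1 came next at 45.9 FPKM. The mean reached 20 FPKM for 9 genes, lay from 5 to 20 FPKM for 22 and was under 5 FPKM for 4, which were Fancb, Fancf, Xrcc3 and Brip1. At the low end, Brip1 was at 3.28 FPKM.

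**Figure D2:**
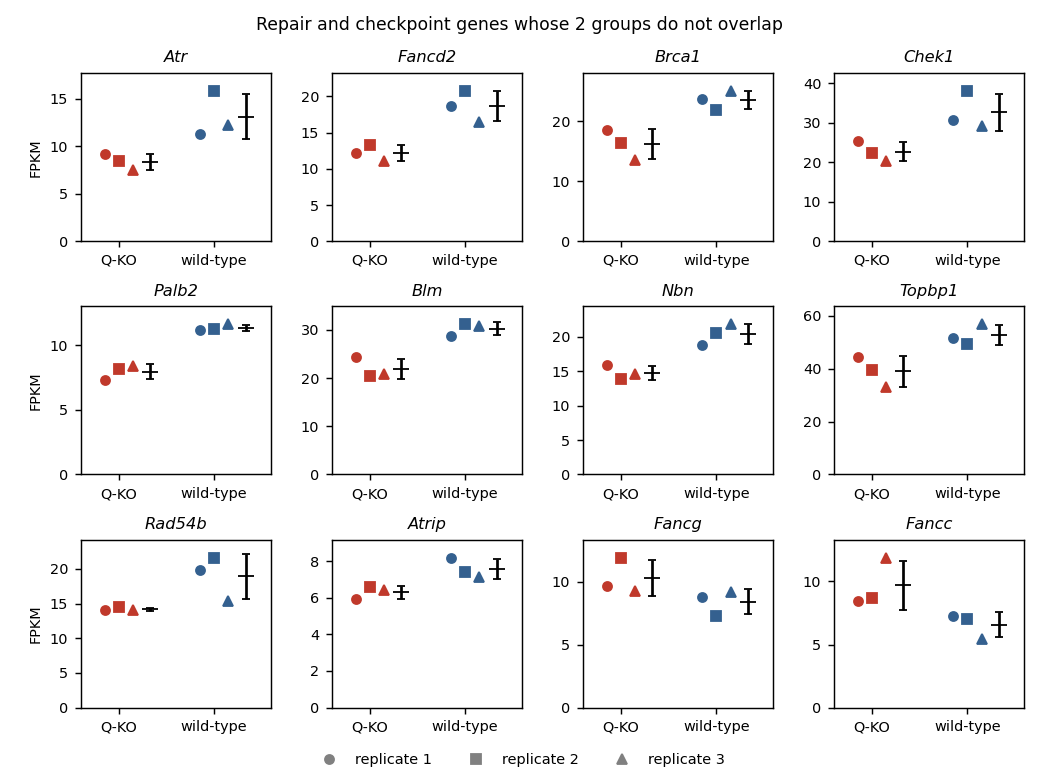
FPKM (y axis, from 0) in each library of the 12 genes whose groups do not overlap, with the 3 libraries labelled Q-KO on the left and the 3 wild-type libraries on the right of each panel. Marker shapes give the replicate number, and the bars give mean ± SD (n = 3 per group). Palb2 ranges from 7.27 to 8.35 FPKM in the Q-KO group and from 11.1 to 11.6 FPKM in the wild-type group.

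BRCA1 and its partner BARD1 form a ubiquitin ligase that promotes resection, and PALB2 links BRCA1 to BRCA2, which prepares the resected strand for invasion. Brca1 was at 18.5, 16.5 and 13.6 FPKM in the libraries labelled Q-KO, against 23.7, 21.9 and 25.0 FPKM in wild-type libraries. The groups did not overlap, and the log2 change was -0.52 (SE 0.15, limma adjusted p = 0.0986). Brca1 lies on chromosome 11, whose genes were higher in wild-type replicate 3. Without that library its log2 change was -0.48 (limma adjusted p = 0.169). Over the leave-one-out fits its adjusted p ran from 0.120 to 0.310. The part of the chromosome excess in its value was not tested. Palb2 was at 7.27, 8.15 and 8.35 FPKM in the libraries labelled Q-KO, against 11.1, 11.2 and 11.6 FPKM in wild-type libraries. Its libraries lay close together within each group, and the log2 change was -0.47 (SE 0.13, limma adjusted p = 0.0946). Bard1 was at 8.88, 7.22 and 5.92 FPKM in the libraries labelled Q-KO, against 8.30, 9.50 and 9.64 FPKM in wild-type libraries. Its groups overlapped through Q-KO replicate 1 (log2 change -0.30, SE 0.17, limma adjusted p = 0.359). Brca2 was at 12.5, 8.66 and 6.57 FPKM in the libraries labelled Q-KO, against 7.02, 5.93 and 9.45 FPKM in wild-type libraries. The groups overlapped, with Q-KO replicate 1 the highest and wild-type replicate 2 the lowest library, and the log2 change was 0.26 with a 95% interval from -0.31 to 0.82 (limma adjusted p = 0.589). Over the leave-one-out fits it ran from 0.035, without Q-KO replicate 1, to 0.45, without Q-KO replicate 3, and it was 0.42 without wild-type replicate 3.

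RAD51C, XRCC2 and XRCC3 assist the invading filament, and RAD54 and RAD54B are motor proteins that drive the invasion of the sister duplex. Of these 5 genes only Rad54b had groups that did not overlap, against 27.7% of all genes tested. Rad54b was at 14.0, 14.5 and 14.1 FPKM in the libraries labelled Q-KO, against 19.8, 21.6 and 15.3 FPKM in wild-type libraries (log2 change -0.38, SE 0.15, limma adjusted p = 0.206). Wild-type replicate 3 lay nearest to the Q-KO group. Without it the log2 change was -0.52, and with Y-linked transcripts as a covariate, which in effect compares the Q-KO group with wild-type replicate 3 alone, it was -0.11. Rad54b shares 39.1% of its exonic bases in the GENCODE annotation (GRCm38) with Fsbp on the same strand, so its value is uncertain. Rad54l was at 18.1 to 19.5 FPKM in the libraries labelled Q-KO, against 20.8 ± 1.97 FPKM in wild-type libraries (mean and SD, n = 3), and its groups overlapped. Rad51c averaged 9.10 ± 1.06 FPKM in the libraries labelled Q-KO and 8.09 ± 0.695 FPKM in wild-type libraries, and Xrcc2 averaged 7.72 ± 0.985 FPKM in the libraries labelled Q-KO and 7.34 ± 1.48 FPKM in wild-type libraries (SD, n = 3 each). Xrcc3, the lowest of the 5, averaged 3.67 ± 0.403 FPKM in the libraries labelled Q-KO and 4.21 ± 0.674 FPKM in wild-type libraries (SD, n = 3 each). The log2 changes of Rad54l, Rad51c, Xrcc2 and Xrcc3 ran from -0.15 to 0.15, and their 95% intervals together span -0.54 to 0.49.

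MRE11, RAD50 and NBS1 (Nbn) form the complex that recognises and starts to trim broken ends, CtIP (Rbbp8) activates it, EXO1 extends the resection, and the helicase BLM takes part in resection and in dissolving joined molecules. All 6 genes had a log2 change below 0, and the groups of Blm and Nbn did not overlap. Over all genes tested 40.7% were below 0 and 27.7% did not overlap, with 9.44% lower in the libraries labelled Q-KO. Blm was at 24.3, 20.5 and 20.8 FPKM in the libraries labelled Q-KO, against 28.6, 31.1 and 30.9 FPKM in wild-type libraries (log2 change -0.45, SE 0.13, limma adjusted p = 0.0956). Nbn was at 15.9, 13.8 and 14.6 FPKM in the libraries labelled Q-KO, against 18.8, 20.5 and 21.8 FPKM in wild-type libraries (log2 change -0.44, SE 0.13, limma adjusted p = 0.107). The other subunits of its complex overlapped between the groups. Mre11a averaged 23.4 ± 1.25 FPKM in the libraries labelled Q-KO and 25.9 ± 2.89 FPKM in wild-type libraries, and Rad50 averaged 13.9 ± 2.21 FPKM in the libraries labelled Q-KO and 14.6 ± 2.87 FPKM in wild-type libraries (SD, n = 3 each). Rbbp8 averaged 14.5 ± 0.597 FPKM in the libraries labelled Q-KO and 15.7 ± 1.70 FPKM in wild-type libraries, and Exo1 averaged 11.3 ± 1.14 FPKM in the libraries labelled Q-KO and 12.1 ± 0.947 FPKM in wild-type libraries (SD, n = 3 each). The log2 changes of Mre11a, Rbbp8, Exo1 and Rad50 were -0.14, -0.11, -0.09 and -0.06, with 95% intervals that together span -0.49 to 0.37.

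The Fanconi core complex is the ubiquitin ligase of the pathway, with FANCL as its catalytic subunit, and FANCM anchors it to DNA. This group of 8 genes was divided, with 3 log2 changes below 0 and 5 above 0 and a median of 0.03. Both genes whose libraries labelled Q-KO all lay above the wild-type libraries belong to it. Over all genes tested 18.2% lay above in this way, 40.7% had a log2 change below 0, and the median was 0.07, so this group lay near all genes. Fancc was at 8.49, 8.68 and 11.9 FPKM in the libraries labelled Q-KO, against 7.25, 7.02 and 5.48 FPKM in wild-type libraries (log2 change 0.49, SE 0.18, limma adjusted p = 0.171). Fancg was at 9.66, 11.9 and 9.29 FPKM in the libraries labelled Q-KO, against 8.79, 7.29 and 9.15 FPKM in wild-type libraries (log2 change 0.26, SE 0.16, limma adjusted p = 0.384). The gap between the groups of Fancg was small, since wild-type replicate 3 and Q-KO replicate 3 were almost level.

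Fancl was at 22.6, 18.4 and 23.2 FPKM in the libraries labelled Q-KO, against 20.5, 27.4 and 35.5 FPKM in wild-type libraries. Its log2 change of -0.34 (limma adjusted p = 0.383) was -0.15 without wild-type replicate 3, and Fancl lies on chromosome 11, whose genes were higher in that library. Fanca, on chromosome 8, was at 14.7, 14.7 and 12.2 FPKM in the libraries labelled Q-KO, against 12.3, 10.8 and 17.6 FPKM in wild-type libraries. Its log2 change was 0.05 with all libraries and 0.24 without wild-type replicate 3, and it did not pass limma's test in either fit (adjusted p = 0.904 and 0.466). The part of the chromosome excess in the values of Fancl and Fanca was not tested. Fancm was at 18.6, 13.3 and 8.79 FPKM in the libraries labelled Q-KO, against 9.95, 8.71 and 14.2 FPKM in wild-type libraries, with a log2 change of 0.25 that ran from 0.0089, without Q-KO replicate 1, to 0.51, without Q-KO replicate 3. Fancf, whose product adapts FANCM to the core complex, averaged 4.13 ± 0.177 FPKM in the libraries labelled Q-KO and 4.12 ± 0.317 FPKM in wild-type libraries, with a 95% interval of the log2 change from -0.33 to 0.34. Fancb averaged 4.37 ± 0.423 FPKM in the libraries labelled Q-KO and 4.80 ± 0.431 FPKM in wild-type libraries (SD, n = 3 each, log2 change -0.11). Fance averaged 9.29 ± 1.91 FPKM in the libraries labelled Q-KO and 10.9 ± 0.445 FPKM in wild-type libraries (SD, n = 3 each, log2 change -0.23). Of the 35 genes 13 share exonic bases with another annotated gene, of which Rad54b, Fancl and Fanci share the most. Fancl shares 17.0% of its exonic bases with Vrk2 on the other strand, and since the counting is not stated to use strand, its value is uncertain.

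FANCD2 and FANCI form the clamp that the core complex marks, and BRIP1, also called FANCJ, is a helicase that binds BRCA1. Fancd2 was at 12.2, 13.3 and 11.1 FPKM in the libraries labelled Q-KO, against 18.7, 20.7 and 16.5 FPKM in wild-type libraries. Its mean in the Q-KO group was 65.4% of the wild-type mean. With a log2 change of -0.57 (SE 0.14, limma adjusted p = 0.0683), it had the lowest adjusted p of the 35 genes. Without wild-type replicate 3 the log2 change was -0.65 (adjusted p = 0.0596). It passed with a trend with transcript length removed (adjusted p = 0.0346), as did Palb2 (adjusted p = 0.0429) and Brca1 (adjusted p = 0.0444). It alone passed with a trend with GC content removed (adjusted p = 0.0335), after quantile normalization (adjusted p = 0.0434) and after median-of-ratios scaling (adjusted p = 0.0451). Removing either trend also removed the overall offset of each library, so it rescaled the libraries too. The median of all genes tested was -0.00059 with the length trend removed and -0.0036 with the GC trend removed, against 0.07 as deposited. The part of the rescaling in these passes was not tested. Over the 6 leave-one-out fits the adjusted p of Fancd2 ran from 0.0596 to 0.212, and with the replicate number as a block it was 0.0966. With Y-linked transcripts as a covariate the log2 change of Fancd2 was weaker, at -0.42. Fanci averaged 20.7 ± 1.40 FPKM in the libraries labelled Q-KO and 26.1 ± 4.76 FPKM in wild-type libraries (SD, n = 3 each), with a log2 change of -0.31 (limma adjusted p = 0.320). It ran from -0.46, without wild-type replicate 3, to -0.20, without wild-type replicate 2, and was -0.0058 with Y-linked transcripts as a covariate. Fanci shares 13.4% of its exonic bases with Polg on the other strand. The ratio of Fancd2 to Fanci within a library was 0.580, 0.605 and 0.578 in the libraries labelled Q-KO, against 0.676, 0.693 and 0.796 in wild-type libraries. Brip1 averaged 3.05 ± 0.325 FPKM in the libraries labelled Q-KO and 3.51 ± 0.698 FPKM in wild-type libraries (SD, n = 3 each).

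MSH6 takes part in the recognition of mismatched bases. Msh6 was at 195, 202 and 189.9 FPKM in the libraries labelled Q-KO, against 191, 183 and 145 FPKM in wild-type libraries. The wild-type range was set by wild-type replicate 3, and the log2 change of 0.19 (SE 0.14, limma adjusted p = 0.491) was 0.065 without that library.

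ATR is the kinase of stalled forks, ATRIP is its obligate partner, and CHK1 is its effector. The groups of these 3 genes did not overlap, whereas those of Atm and Chek2, the other checkpoint kinases listed, did. Over all genes tested 27.7% did not overlap, with 9.44% lower in the libraries labelled Q-KO. Atr was at 9.19, 8.40 and 7.48 FPKM in the libraries labelled Q-KO, against 11.3, 15.8 and 12.3 FPKM in wild-type libraries (log2 change -0.58, SE 0.17, limma adjusted p = 0.0966). Chek1 was at 25.3, 22.3 and 20.4 FPKM in the libraries labelled Q-KO, against 30.8, 38.0 and 29.2 FPKM in wild-type libraries (log2 change -0.50, SE 0.15, limma adjusted p = 0.111). Wild-type replicate 2 was the highest library for both. Atrip was at 5.91, 6.60 and 6.41 FPKM in the libraries labelled Q-KO, against 8.20, 7.40 and 7.12 FPKM in wild-type libraries. Its difference was smaller (log2 change -0.23, SE 0.14, limma adjusted p = 0.382).

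ATM is the kinase of double-strand breaks, and CHK2 is its effector. Atm was at 8.60, 6.60 and 4.71 FPKM in the libraries labelled Q-KO, against 5.21, 6.64 and 6.47 FPKM in wild-type libraries (log2 change 0.08, SE 0.21, limma adjusted p = 0.867). The Q-KO group enclosed the wild-type group. Chek2 was at 33.5, 37.6 and 36.4 FPKM in the libraries labelled Q-KO, against 35.1, 30.4 and 28.5 FPKM in wild-type libraries (log2 change 0.19, SE 0.13, limma adjusted p = 0.448). Within a library, the ratio of Chek1 to Chek2 was 0.756, 0.594 and 0.562 in the libraries labelled Q-KO, against 0.877, 1.25 and 1.02 in wild-type libraries. The ratio of Atr to Atm was 1.07, 1.27 and 1.59 in the libraries labelled Q-KO, against 1.89 to 2.38 in the 3 wild-type libraries. Neither set of ratios overlapped between the groups. Ratios were looked at, with no test, for 8 pairs of genes chosen after the values were seen, of which 4 did not overlap, those of Fancd2 to Fanci and of Brca1 to Bard1 included.

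TOPBP1 switches ATR on, claspin (Clspn) bridges ATR to CHK1, and Timeless travels with the fork and supports that signal. Topbp1 was at 44.5, 39.7 and 32.9 FPKM in the libraries labelled Q-KO, against 51.7, 49.5 and 56.8 FPKM in wild-type libraries (log2 change -0.43, SE 0.15, limma adjusted p = 0.144). The groups did not overlap. Clspn was at 10.7, 9.95 and 8.22 FPKM in the libraries labelled Q-KO, against 11.6, 10.2 and 12.1 FPKM in wild-type libraries (log2 change -0.22, SE 0.15, limma adjusted p = 0.456). Timeless averaged 21.4 ± 2.34 FPKM in the libraries labelled Q-KO and 23.4 ± 4.39 FPKM in wild-type libraries (SD, n = 3 each, log2 change -0.11, limma adjusted p = 0.744).

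The difference between Q-KO replicates 1 and 3 followed transcript length. Each gene was given the length of its longest transcript in the GENCODE annotation, and the 35 genes had a median length of 4571 nt, against 3213 nt for all genes tested that had a length. Q-KO replicate 1 was above Q-KO replicate 3 for all 14 of the 35 genes with a transcript over 5000 nt, and for 10 of the 21 shorter ones, a boundary chosen after the values were seen. The ratio of Q-KO replicate 1 to Q-KO replicate 3 was 2.11 for Fancm, 1.91 for Brca2 and 1.83 for Atm, whose longest transcripts are 7816, 10724 and 9819 nt, and 0.660 for Fance at 2193 nt. Across the 35 genes, Spearman's rho between the log2 difference of these libraries and transcript length was 0.75, and across the 11494 tested genes with a length it was 0.53. For Q-KO replicate 1 minus Q-KO replicate 2 rho was 0.59 across the 35 genes but 0.05 across all genes, where its rho with GC content was -0.42, and for Q-KO replicate 2 minus Q-KO replicate 3 the rho with length was 0.50 and 0.63. Genes of 1 library pair share their depth and RNA, so these are descriptions of the pair. Over all genes, the median difference ran from -0.40 in the shortest of 10 bins by length to 0.39 in the longest. Between the groups the relation was weaker, with a rho between the log2 change and length of -0.04 across the 35 genes and -0.13 across all genes. Q-KO replicate 3 was the lowest library labelled Q-KO for 20 of the 35 genes and for 40.7% of all genes. With a length trend removed in each library, which also removed the overall offset of the library, 3 of the 35 genes passed limma's test. In that fit 591 of all 11494 genes passed.

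**Figure D3:**
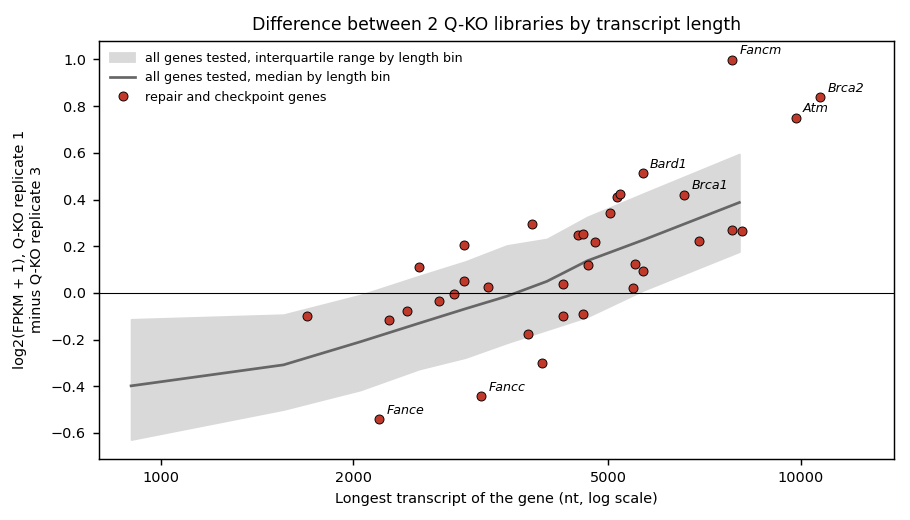
Log2(FPKM + 1) of Q-KO replicate 1 minus that of Q-KO replicate 3 (y axis) against the length of the longest transcript (x axis, nt, log scale). Points are the 35 genes, and the line and band give the median and interquartile range of all genes tested in 10 bins by length. The median of all genes runs from -0.40 to 0.39, and Fancm, Atm and Brca2 lie highest among the 35.

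Promoter windows from RefSeq (GRCm38.p6), 250 bases before to 50 bases after an annotated start, were at hand for 28 of the 35 genes. The others were Exo1, Fancd2, Nbn, Rad50, Rad54b, Rbbp8 and Xrcc2. The E2F letters TTTCCCGC, TTTGGCGC, TTTGCCGC and TTTCGCGC were searched on both strands. They were found for 8 of the 28 genes, which were Bard1, Brca2, Chek2, Clspn, Fancg, Msh6, Rad51c and Topbp1. Among 32851 windows of this length, 2.26% held them, and so did 5.04% of the 8689 tested genes with a window. CCAAT, the letters of the NF-Y box, was found on either strand for 18 of the 28 genes and for 44.2% of those tested genes, and GGGCGG, the GC box, for 19 of the 28 and for 70.6%. TTTGAA, the letters of the cell cycle homology element CHR, was found only for Bard1 among the 28, and for 13.8%. The 8 genes with E2F letters had a median log2 change of 0.17, with 3 below 0 and 5 above 0. The 20 genes without them had a median of -0.15, with 15 below 0 and 5 above 0. Over all tested genes the medians were 0.04 for 438 genes with the letters and 0.08 for 8251 without. These values describe exact letters in a window and were not tested. A near match, such as TTTGGCGG in the window of Chek1, was not counted, so Chek1 (log2 change -0.50) is among the genes without. The split and its medians therefore depend on the letters searched. Fancd2, Nbn and Rad54b, which were lower in every library labelled Q-KO, had no window and are in neither set. No gene passed the threshold, so 4 windows were chosen after the values were seen, to show the letters in genes on either side of 0 (Topbp1 and Bard1 below, Fancg and Msh6 above). Each is printed 5′ to 3′ on the strand of the gene, with the E2F letters or their reverse complement in capitals. They start 129 bases before the annotated start in Topbp1 (chr9:103305077-103305376, plus strand), 209 before it in Bard1 (chr1:71102923-71103222, minus strand), 52 before it in Fancg (chr4:43010252-43010551, minus strand) and 15 after it in Msh6 (chr17:87974800-87975099, plus strand).
Topbp1: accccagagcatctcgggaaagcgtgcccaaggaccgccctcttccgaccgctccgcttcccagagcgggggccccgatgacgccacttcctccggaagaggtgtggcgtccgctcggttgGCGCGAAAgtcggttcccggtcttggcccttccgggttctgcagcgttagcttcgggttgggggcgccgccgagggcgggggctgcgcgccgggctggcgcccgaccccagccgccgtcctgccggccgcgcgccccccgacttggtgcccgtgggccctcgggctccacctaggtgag
Bard1: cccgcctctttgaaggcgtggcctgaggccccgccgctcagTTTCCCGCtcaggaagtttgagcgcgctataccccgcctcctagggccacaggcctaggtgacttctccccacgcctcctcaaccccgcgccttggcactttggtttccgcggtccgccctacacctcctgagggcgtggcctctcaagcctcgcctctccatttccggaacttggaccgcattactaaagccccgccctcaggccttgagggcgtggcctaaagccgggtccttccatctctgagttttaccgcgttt
Fancg: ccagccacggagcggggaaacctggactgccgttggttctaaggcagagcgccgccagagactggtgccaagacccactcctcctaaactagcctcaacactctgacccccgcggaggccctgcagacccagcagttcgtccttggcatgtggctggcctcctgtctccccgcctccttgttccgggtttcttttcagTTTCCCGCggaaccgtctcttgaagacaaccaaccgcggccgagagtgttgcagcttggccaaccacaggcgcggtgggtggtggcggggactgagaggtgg
Msh6: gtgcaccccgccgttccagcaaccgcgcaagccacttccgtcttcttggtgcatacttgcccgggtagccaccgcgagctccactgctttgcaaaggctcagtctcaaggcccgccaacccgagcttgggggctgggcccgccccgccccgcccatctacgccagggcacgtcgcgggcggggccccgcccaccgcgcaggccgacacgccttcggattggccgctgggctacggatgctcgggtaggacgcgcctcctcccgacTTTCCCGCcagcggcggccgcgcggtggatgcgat

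The other genes of these pathways, 80 in 6 lists, had few calls. Of the 78 tested, 1 passed limma's test, with a rise, and the unadjusted p was under 0.05 for 6 that were lower and 2 that were higher. Over all genes tested 4.06% passed, and 6.7% were lower and 14.8% higher at such an unadjusted p. The one of the 78 that passed was Zswim7, whose product takes part in recombination, on chromosome 11. Zswim7 was at 32.5, 36.7 and 49.3 FPKM in the libraries labelled Q-KO, against 15.1, 20.8 and 23.1 FPKM in wild-type libraries, and rose by 0.97 (SE 0.21, limma adjusted p = 0.0438). That call held in 1 of 6 leave-one-out fits, the one without wild-type replicate 3 (adjusted p 0.0284 to 0.182). It was lost with no filter on low values (limma adjusted p = 0.0876), with no intensity trend (0.0525), after quantile normalization (0.0509), after median-of-ratios scaling (0.0621), with a GC trend removed (0.0672) and with Y-linked transcripts as a covariate (0.153). Among 32 other recombination genes the median log2 change was -0.01, with 18 below 0 and 14 above 0. Rad51ap1, whose product promotes strand invasion, averaged 17.9 ± 0.923 FPKM in the libraries labelled Q-KO and 21.6 ± 0.819 FPKM in wild-type libraries (SD, n = 3 each, log2 change -0.26, limma adjusted p = 0.266).

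Among 12 genes of the BRCA1-A complex and break signalling 0 passed limma's test and 2 had an unadjusted p under 0.05, both lower, with a median log2 change of -0.15. Those 2 were Rif1, whose product limits resection, and the break-signalling scaffold gene Mdc1. Rif1 was at 53.5, 40.4 and 27.1 FPKM in the libraries labelled Q-KO, against 62.1, 56.7 and 70.1 FPKM in wild-type libraries (log2 change -0.68, limma adjusted p = 0.147). Mdc1 was at 19.2, 19.9 and 13.5 FPKM, against 26.0, 25.0 and 21.6 FPKM (log2 change -0.46, limma adjusted p = 0.179). Q-KO replicate 3 was the lowest library for both, and their longest transcripts are 8509 and 7335 nt. Of 11 other checkpoint genes, 0 passed limma's test and 1 had an unadjusted p under 0.05, with a median of -0.25. Tipin, whose product binds Timeless, averaged 143 ± 21.2 FPKM in the libraries labelled Q-KO and 169 ± 19.9 FPKM in wild-type libraries (log2 change -0.25, limma adjusted p = 0.413). Wee1, the kinase that restrains CDK1, averaged 16.8 ± 2.58 FPKM in the libraries labelled Q-KO and 21.2 ± 3.08 FPKM in wild-type libraries (log2 change -0.32, limma adjusted p = 0.326). No gene passed limma's test among 8 tested other Fanconi genes, 6 other mismatch repair genes and 9 end joining genes, where 1, 1 and 0 had an unadjusted p under 0.05, and the medians were -0.12, -0.12 and -0.10. Ube2t, the ubiquitin-conjugating enzyme of the Fanconi pathway, averaged 46.1 ± 11.2 FPKM in the libraries labelled Q-KO and 49.4 ± 10.5 FPKM in wild-type libraries (log2 change -0.10, limma adjusted p = 0.814).

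Lists of cell cycle genes were read beside these. Of 16 genes of S phase, 1 rose and 0 fell, and the median log2 change was -0.05. The one that rose was Ung, the uracil DNA glycosylase, at 67.7, 67.0 and 72.8 FPKM in the libraries labelled Q-KO, against 49.7, 43.8 and 39.1 FPKM in wild-type libraries (log2 change 0.64, SE 0.13, limma adjusted p = 0.0397), a call that 0 of 6 leave-one-out fits kept (adjusted p 0.0673 to 0.180). That call was also lost after median-of-ratios scaling (limma adjusted p = 0.0652), with no intensity trend (0.0540), with a GC trend removed (0.0554) and with a replicate block (0.0839). Of 16 genes of G2 and M phase, 6 fell and 0 rose, 14 had libraries labelled Q-KO all below the wild-type libraries, and the median was -0.61. Over all genes tested 1.02% fell and 3.04% rose, and 9.44% had libraries labelled Q-KO all below. The summed level of the 16 was 855 to 878 FPKM in the libraries labelled Q-KO and 1147 to 1404 FPKM in wild-type libraries. Top2a, the topoisomerase that untangles sister chromatids, was at 110.0, 97.1 and 104 FPKM in the libraries labelled Q-KO, against 197, 231 and 204 FPKM in wild-type libraries. It fell by 1.01 (SE 0.13, limma adjusted p = 0.0101), and the other genes that fell were Cenpf, Mki67, Ttk, Kif11 and Ccnb1. Of 6 leave-one-out fits Top2a passed in 5, Cenpf and Mki67 in 3, Ttk in 2, Kif11 in 1 and Ccnb1 in 0, and none of the 6 genes passed without Q-KO replicate 2. With Y-linked transcripts as a covariate only Top2a passed (limma adjusted p = 0.0238), and Ccnb1 was also lost with no intensity trend (0.0526) and with a replicate block (0.0818). The part of the lower G2 and M phase transcripts in the values of the 35 repair and checkpoint genes was not tested.

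**Figure D4:**
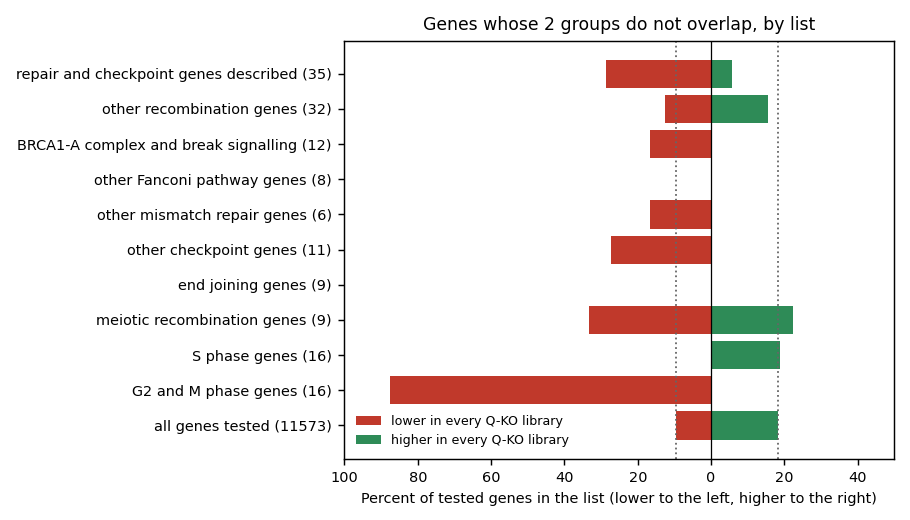
Share of the tested genes of each list (number tested in parentheses) for which every library labelled Q-KO lay below (red, to the left) or above (green, to the right) every wild-type library, with dotted lines at the shares of all genes tested, 9.44% lower and 18.2% higher. The 16 genes of G2 and M phase reach furthest to the left, with 14 lower, and 10 of the 35 repair and checkpoint genes were lower.

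Another scaling moved the median of all genes tested and that of the 35 genes. Single genes moved unequally after quantile normalization, Msh6 from 0.19 to 0.18 and Brip1 from -0.15 to -0.29. The median of all genes tested was 0.07 as deposited, -0.03 after quantile normalization and -0.01 after median-of-ratios scaling, and the median of the 35 genes was -0.14, -0.23 and -0.21 in these fits. The distance between both medians was -0.21, -0.20 and -0.21. Rises were 74.9% of the calls over all genes as deposited, 54.0% after quantile normalization, 61.8% after median-of-ratios scaling, 57.7% with a length trend removed and 60.9% with a GC trend removed.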

How the data were processed

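RNA-seq libraries of 3 Q-KO and 3 wild-type samples were grouped by their sample titles. The authors deposited 1 table of FPKM values per gene symbol and library. Mouse build mm9, Cufflinks, STAR 2.5, bcl2fastq 2.16 and CASAVA are named, with no role or order, per the submitters' processing notes. Gene annotation, strand setting and fragment numbers were not given in the sources used here, so no counting interval was computed. Relative to wild-type replicate 1, depth estimated from ratios of low values was 1.10 to 1.21 in the other libraries. Sums of FPKM ran from 525134 to 641715 per library, and 11032 to 11591 genes reached 1 FPKM. Pearson's r of log2(FPKM + 1) across genes was 0.986 to 0.992 within the Q-KO group, 0.977 to 0.989 within the wild-type group and 0.971 to 0.982 between groups. 1 stray header row was dropped. No value of the 35 genes was 0.

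Groups were compared on log2(FPKM + 1), which understates the change of low genes, by a two-sided moderated test in limma 3.58.1 (R 4.3.3) with a variance trend on expression level, for genes whose mean reached 1 FPKM, with Benjamini-Hochberg adjustment over all of them and a threshold of 0.05. The fit was also run on simulated data with independent noise and with changes larger than those of the 35 genes. The simulation held no length, GC or chromosome differences between libraries, so it cannot show how the test behaves with them. Same-numbered libraries of the groups did not deviate together (r of -0.03, 0.01 and 0.02), so no replicate block was used. The 35 genes, the other gene lists and the alternatives were chosen with earlier results of these data known. The text gives all 6 values of each of the 35 genes that had an unadjusted p under 0.05 or groups that did not overlap, and of some others to show their spread, and the rest by mean or range. From the other lists it names the genes past the threshold and, set by rule, Rad51ap1, Ube2t, Tipin and Wee1. Rif1, Mdc1, Hsf2bp, Mnd1, Sycp3 and the cell type markers named were chosen after their values were seen. Some genes that the rule names are not reported here. Of the 80 other pathway genes, 2 were not matched to the table. Lengths and GC content came from the longest GENCODE transcript of a symbol (GRCm38), for 99.3% of the genes tested.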

Additional observations from a re-analysis of the deposited data

How the results depend on the processing

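None of the 35 genes passed in any of the 6 leave-one-out fits (0 to 0 lower, 0 higher), with a pseudocount of 0.1, with no filter, with a mean of at least 5 FPKM (31 of the 35 tested), with no intensity trend, in a robust fit, with the term for Y-linked transcripts or without chromosomes 8, 11, X and Y (28 of the 35 tested). The count lower was 1 after quantile normalization, after median-of-ratios scaling and with a GC trend removed, and 3 with a length trend removed. Of all genes, 457 passed after quantile normalization, 424 after median-of-ratios scaling, 442 with a GC trend removed and 591 with a length trend removed. With the replicate number as a block, 0 of the 35 and 333 of all genes passed, and the pathway and phase lists held 6 calls in place of 8. Libraries did not each correlate best with their own number. The median of the 35 was -0.23 after quantile normalization and -0.21 after median-of-ratios scaling, and ran from -0.20 to -0.12 over the leave-one-out fits. The number of all genes called was 266 with a mean of at least 5 FPKM, 894 with the term for Y-linked transcripts and 28 to 566 in the leave-one-out fits (leaving out Q-KO replicate 1 gave 187, Q-KO replicate 2 gave 28, Q-KO replicate 3 gave 85, and wild-type replicate 1 gave 94). The calls in the pathway and phase lists numbered 5 with no intensity trend, 4 with the term for Y-linked transcripts, 15 with a length trend removed and 0 to 11 in the leave-one-out fits. The cause of these moves was not tested.

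Some log2 changes, none of them past the threshold, turned their sign in other fits. After quantile normalization these were Xrcc2 (-0.033), Fanca (-0.035), Fancf (-0.11) and Atm (-0.027), and after median-of-ratios scaling Xrcc2 (-0.0040), Fanca (-0.029) and Fancf (-0.066). With a length trend removed they were Xrcc2 (-0.0056) and Fancf (-0.12), and with a GC trend removed Fanca (-0.065) and Fancf (-0.13). With the term for Y-linked transcripts they were Brca2 (-0.069), Exo1 (0.0038), Fanca (-0.33), Fancm (-0.12), Atm (-0.00032) and Ube2t (0.035). Over the leave-one-out fits the log2 change ran from -0.10 to 0.27 for Atm, -0.26 to 0.0075 for Timeless, -0.22 to 0.065 for Rad50, -0.088 to 0.24 for Fanca, -0.078 to 0.18 for Xrcc2, -0.046 to 0.042 for Fancf and -0.29 to 0.062 for Ube2t. With 3 libraries a group and no fragment counts, small differences were not resolved.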

Other observations

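Genes of meiotic recombination, which are read mainly in germ cells, were in part detectable in these libraries. Of 16 listed, 9 had a mean of at least 1 FPKM, of which 0 passed limma's test, while the unadjusted p was under 0.05 for 3 that were lower and 2 that were higher. Over all genes tested 6.7% were lower and 14.8% higher at such a p. Hsf2bp, whose product binds BRCA2, was at 17.1, 17.1 and 22.5 FPKM in the libraries labelled Q-KO, against 32.9, 29.6 and 28.1 FPKM in wild-type libraries (log2 change -0.66, SE 0.15, limma adjusted p = 0.0545). Mnd1, a partner of the meiotic recombinase DMC1, averaged 14.6 ± 2.22 FPKM in the libraries labelled Q-KO and 24.0 ± 5.93 FPKM in wild-type libraries (SD, n = 3 each, log2 change -0.67, limma adjusted p = 0.106). Sycp3, a protein of the meiotic chromosome axis, averaged 24.8 ± 10.7 FPKM in the libraries labelled Q-KO and 7.85 ± 5.44 FPKM in wild-type libraries (log2 change 1.66, limma adjusted p = 0.0901). The groups of these 3 genes did not overlap. They were named after their values were seen.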
